A study of Arabidopsis thaliana with 24 samples.

Results

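In Arabidopsis thaliana stems, untreated or on auxin, 60 of 22746 probe sets had higher means in stem than in interfascicular tissue at 3 times. Stem tissue here is that outside the starch sheath and the vascular bundles. The 60 were chosen by the group means of the deposited log2 values. The stem mean had to exceed the interfascicular mean by at least 0.8 untreated, after 2 days on NAA and after 5 days on NAA. The interfascicular tissue was the starch sheath at the first 2 of these times and the newly formed cambium at 5 days. Class III peroxidases and 5 named genes were to be left out, and this removed 0 probe sets. The exclusion could act only on probe sets with 1 annotated gene, so a peroxidase among the unnamed members would have stayed in. Of the 60 members, 20 have 1 annotated gene in the annotation used here, 1 has several genes and 39 are unnamed here. The opposite pattern, at least 0.8 higher in the interfascicular tissue at all 3 times, was met by 10 probe sets.

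All plants were wild type, and messenger RNA was measured on 24 Affymetrix ATH1 arrays in 8 groups of 3, which the labels call biological replicates. Laser capture took the starch sheath untreated, after 2 days on NAA, a synthetic auxin, and after 2 or 5 days on MS, a plant culture medium, with no NAA. Interfascicular cambium was captured after 5 days on NAA, and the remaining stem tissue untreated and after 2 and 5 days on NAA. Every group except the untreated stem and sheath came from excised segments in culture, so NAA, excision and culture cannot be told apart between untreated and NAA-treated tissue. No stem tissue on medium alone was used here. All RNA was amplified in several rounds before labelling, and the number of plants behind each replicate is not stated in the labels.

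The starch sheath is the innermost cell layer of the stem cortex, where starch-filled plastids settle and sense gravity. In an Arabidopsis stem the cambium arises first inside the vascular bundles, and cells between the bundles then resume division and close the cambium into a ring, a step that auxin drives. Outside the sheath and the bundles a stem holds mainly epidermis, cortex and pith. A lower level in a captured sample can mean fewer cells of a type or less RNA per cell, and bulk arrays cannot tell these apart.

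Before the members are described, 3 of the 6 untreated arrays stand apart. Over the 22746 probe sets the SD of the log2 values was 0.955 to 1.08 on replicates 2 and 3 of the untreated sheath and replicate 3 of the untreated stem, and 1.22 to 1.57 on the other 21 arrays. Of these 3 narrow arrays, 2 belong to the sheath, so the untreated differences of named members are given below with and without them; without them the untreated sheath is a single array. Members stayed above 0.8 in 35 of 60 cases without these arrays, their median untreated difference went from 1.42 to 0.9, and 5 members then had a difference below 0. The only sheath identity gene with a named probe set, JKD, had a mean of 2.97 in the untreated stem and 3.98 in the untreated sheath, a difference of 1.0 that did not pass (limma adjusted p = 0.159). Its stem minus interfascicular difference was -0.31 at 2 days and 0.01 at 5 days on NAA. The other measured gene of that list, the starch gene SBE2.2, went the other way untreated, with 4.33 in the stem and 3.55 in the sheath, and did not pass either. Of 18 epidermis and stomata markers 4 had a named probe set (ACR4, SPCH, MUTE and FAMA), with stem means between 2.36 and 3.47, around the median of all values, 3.09. All 4 were lower in the untreated stem than in the untreated sheath, with differences from -0.55 (SPCH) to -0.14 (FAMA) that did not pass. The other entries of that list were not analysed here.

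The members' mean level followed the choice of groups and is given as a description. Averaged over the 60 members, the stem arrays lay at 6.98, 6.92 and 5.75 untreated, 7.23, 7.38 and 6.91 after 2 days and 6.67, 6.25 and 6.64 after 5 days on NAA. The interfascicular arrays lay at 5.85, 4.5 and 4.39 untreated, 5.46, 5.48 and 5.35 after 2 days and 5.18, 4.72 and 4.61 in the cambium. Only untreated did the tissues overlap, because the narrow stem array, replicate 3, lay below replicate 1 of the sheath.

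**Figure D1:**
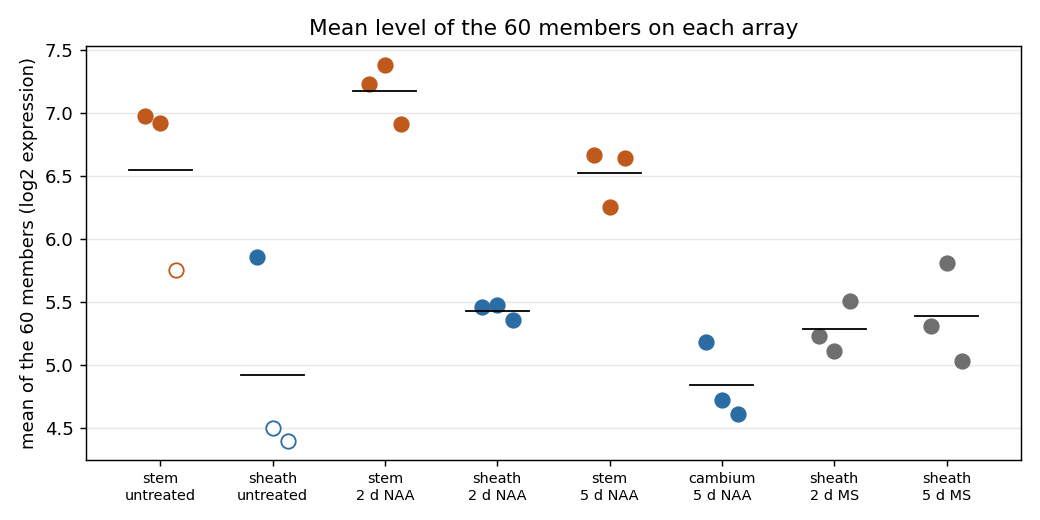
Mean log2 level of the 60 members on each of the 24 arrays (points) by group, with the group mean as a bar; open points are the 3 narrow arrays. Stem arrays (orange) on NAA lie between 6.25 and 7.38, interfascicular arrays (blue) on NAA between 4.61 and 5.48, and medium-only sheath arrays (grey) between 5.03 and 5.81.

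Tissue differences among the members ran from 0.83 to 4.92 untreated with a median of 1.42. After 2 days on NAA they ran from 0.8 to 5.53 with a median of 1.4, and after 5 days from 0.82 to 5.34 with a median of 1.2. No single time dominated: the difference was largest untreated in 26 members, at 2 days in 19 and at 5 days in 15. All 3 stem arrays lay above all 3 interfascicular arrays in 24 of 60 members untreated, against 3.06% of all probe sets. At 2 days this held for 41 members, against 6.16% of all (compared within replicate numbers, the stem was higher in all 3 in 58 members, against 15% of all), and at 5 days for 44, against 5.39%. It held at all 3 times for 17 members, against 0.185% of all probe sets; the rule used these arrays, so nothing is read from these shares.

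**Figure D2:**
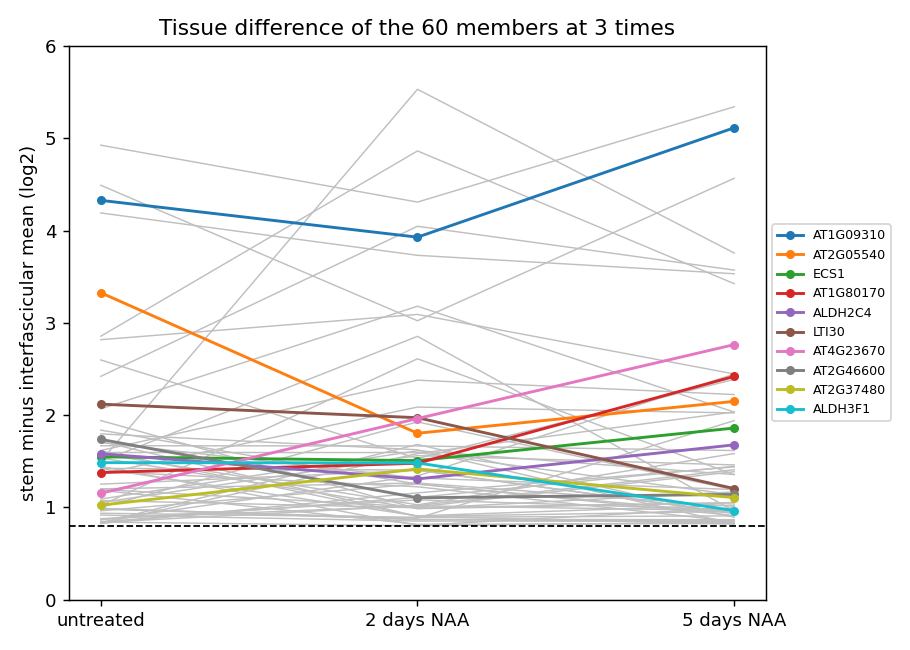
Stem mean minus interfascicular mean (log2) of each of the 60 members untreated, after 2 days and after 5 days on NAA; grey lines are single members, coloured lines are 10 named members and the dashed line is the threshold of 0.8. Most members lie between 0.8 and 2, while AT1G09310 stays between 3.93 and 5.11.

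All 3 stem means lay above the median of all values, 3.09, in 60 of 60 members and above 6 in 30, against 42.4% and 4.62% of all probe sets; the choice favours high stem means, so nothing is read from these shares. Between the bundles, 9 members kept all 3 means above 6, against 2.68% of all probe sets, and 12 had at least 1 mean under 3.09, against 57.8% of all. Across all 24 arrays each member's level correlated with the mean of the other 59 at Pearson's r between 0.13 and 0.92. The median was 0.69, which is a description because the arrays share groups and spread. Most of these arrays also chose the members, which favours positive values. The highest were those of 247717_at (r = 0.92), 252115_at (0.9) and 263426_at (0.89), and AT1G09310 had 0.87.

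At the threshold, the members with the smallest margin were AT2G45180 (smallest difference 0.82), AT5G45500 (0.8) and 263986_at (0.8). Just outside lay AT3G30390 (0.78), AT3G16370 (0.78) and 247884_at (0.78), each short at 5 days. AT3G16370 is thus also among the genes named for leaving out, and the other 4 fell further short.

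The widest named difference belonged to AT1G09310, which encodes a protein with a domain of unknown function. In the stem its log2 level was 11.09, 10.81 and 9.12 untreated, 11.87, 12.08 and 11.49 after 2 days on NAA and 8.69, 8.4 and 9.22 after 5 days. Between the bundles it was 8.18, 5.43 and 4.44 in the untreated sheath, 8.53, 7.98 and 7.15 in the sheath after 2 days on NAA and 4.5, 3.89 and 2.58 in the cambium. The stem arrays were higher at every time with no overlap, and the differences of the means were 4.33, 3.93 and 5.11 (2.77 untreated without the narrow arrays). On medium alone, which the rule did not use, the sheath had 3.16, 3.68 and 7.97 at 2 days and 2.97, 5.55 and 3.8 at 5 days, below all 9 stem arrays. The unnamed probe set 247717_at was the only member with a larger smallest difference, at 4.92, 4.31 and 5.34 (3.39 untreated without the narrow arrays). AT2G37480, whose product has no known function, had 7.45, 7.22 and 4.85 untreated, 7.07, 7.54 and 7.01 after 2 days on NAA and 7.15, 6.73 and 6.87 after 5 days in the stem. Its levels were 6.61, 5.54 and 4.29 in the untreated sheath, 5.32, 5.76 and 6.3 in the sheath after 2 days on NAA and 6.31, 6.57 and 4.55 in the cambium. The tissues overlapped untreated, through the narrow stem array, and were apart at both later times, with differences of 1.02, 1.42 and 1.11 (0.72 untreated without the narrow arrays).

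Several named members are linked to the cell wall, and AT2G05540, for which no such role is given here, is described with them. AT2G05540, a glycine-rich protein, had stem levels of 9.24, 6.85 and 6.79 untreated, 5.83, 5.8 and 5.71 after 2 days on NAA and 6.83, 4.74 and 5.95 after 5 days. Its interfascicular levels were 5.05, 3.59 and 4.26 in the untreated sheath, 4.63, 3.29 and 4.01 in the sheath after 2 days on NAA and 3.23, 3.55 and 4.3 in the cambium. Stem and interfascicular arrays were apart at all 3 times, the stem was highest untreated, and the differences were 3.33, 1.8 and 2.15 (3.0 without the narrow arrays). ECS1, a wall-associated protein, reached 5.56, 6.94 and 5.22 untreated, 5.46, 5.06 and 6.26 after 2 days on NAA and 7.41, 6.7 and 7.14 after 5 days in the stem. It lay at 5.2, 3.82 and 4.04 in the untreated sheath, 4.82, 3.83 and 3.61 in the sheath after 2 days on NAA and 6.37, 4.2 and 5.09 in the cambium. The arrays were apart at all 3 times by narrow margins, with differences of 1.55, 1.51 and 1.86 (1.04 without the narrow arrays). The medium-only sheath held 3.79, 2.35 and 3.11 at 2 days and 4.58, 7.07 and 3.15 at 5 days, so that a single array at 5 days was as high as the stem.

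AT1G80170, a pectin lyase-like protein of the polygalacturonase type, a class of enzymes that cut wall pectin, had stem levels of 11.92, 10.97 and 10.36 untreated, 9.13, 10.28 and 8.09 after 2 days on NAA and 8.44, 7.94 and 8.09 after 5 days. Its levels between the bundles were 11.56, 9.07 and 8.48 in the untreated sheath, 7.76, 9.07 and 6.23 in the sheath after 2 days on NAA and 6.5, 5.66 and 5.05 in the cambium. Both tissues were highest untreated, overlapped untreated and at 2 days, and were apart at 5 days. The differences were 1.38, 1.48 and 2.42, but the untreated one was -0.11 without the narrow arrays. XTH32, a xyloglucan endotransglucosylase/hydrolase that cuts and rejoins wall xyloglucan, had 6.64, 6.07 and 6.62 untreated, 6.51, 4.53 and 6.71 after 2 days on NAA and 3.76, 3.45 and 4.0 after 5 days in the stem. It had 5.85, 4.14 and 3.96 in the untreated sheath, 4.18, 2.8 and 5.89 in the sheath after 2 days on NAA and 2.87, 3.05 and 2.84 in the cambium. Both tissues were lowest at 5 days, where they were nevertheless apart, and the untreated difference of 1.8 was 0.51 without the narrow arrays.

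AT2G45180, a lipid-transfer type protein of the hybrid proline-rich family, was among the members nearest the threshold. The stem had 6.55, 5.82 and 5.06 untreated, 7.77, 3.44 and 7.94 after 2 days on NAA and 5.23, 3.62 and 4.24 after 5 days. The interfascicular tissue had 5.34, 4.08 and 4.45 in the untreated sheath, 6.07, 2.97 and 7.67 in the sheath after 2 days on NAA and 4.22, 2.7 and 3.7 in the cambium. Replicate 2 at 2 days was low in both tissues, and the tissues overlapped at all 3 times. Within replicate numbers the 2-day stem exceeded the 2-day sheath by 1.7, 0.47 and 0.27. The rule used these arrays, so nothing is read from this. The untreated difference was 1.19, or 0.85 without the narrow arrays. AT1G18980, a germin-like protein of the cupin superfamily, had group means of 4.64, 5.77 and 5.87 in the stem and 3.66, 4.88 and 3.93 between the bundles. Its arrays were apart only at 5 days. Within replicate numbers its 2-day stem was higher by 1.04, 0.98 and 0.63, again on arrays that the rule used. Its untreated difference was 0.98, or 0.8 without the narrow arrays. AT1G18980 and the MYB-related transcription factor gene AT1G19000, also a member, are close neighbours with 1 protein-coding gene between them in the RefSeq annotation of TAIR10.1.

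A pair of aldehyde dehydrogenases belonged to the module. ALDH2C4, known as REDUCED EPIDERMAL FLUORESCENCE1, oxidises sinapaldehyde and coniferaldehyde to sinapate and ferulate in phenylpropanoid metabolism. Its stem levels were 7.27, 8.97 and 7.48 untreated, 9.03, 10.12 and 7.98 after 2 days on NAA and 9.19, 9.01 and 9.26 after 5 days. Its interfascicular levels were 7.02, 6.33 and 5.62 in the untreated sheath, 7.74, 7.98 and 7.47 in the sheath after 2 days on NAA and 8.05, 6.91 and 7.48 in the cambium. The tissues were apart untreated and at 5 days, and met at 7.98 at 2 days, with differences of 1.58, 1.31 and 1.68 (1.09 without the narrow arrays). ALDH3F1, which belongs to another family of aldehyde dehydrogenases, had 5.15, 6.26 and 5.5 untreated, 5.25, 5.69 and 5.41 after 2 days on NAA and 5.13, 4.57 and 4.53 after 5 days in the stem. It had 4.21, 3.84 and 4.41 in the untreated sheath, 4.36, 3.58 and 3.97 in the sheath after 2 days on NAA and 3.55, 3.21 and 4.57 in the cambium. The tissues were apart untreated and at 2 days and overlapped at 5 days, with differences of 1.48, 1.48 and 0.96 (1.5 without the narrow arrays).

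Another 3 named members are linked to stress or calcium. LTI30 is a dehydrin, a protective protein made in cold and in response to abscisic acid. Its stem levels were 6.66, 5.09 and 4.41 untreated, 7.0, 7.56 and 5.13 after 2 days on NAA and 4.07, 3.24 and 3.9 after 5 days. Its interfascicular levels were 4.25, 2.7 and 2.85 in the untreated sheath, 4.0, 5.95 and 3.82 in the sheath after 2 days on NAA and 2.85, 2.54 and 2.21 in the cambium. They overlapped only at 2 days, and both tissues were lowest at 5 days, with differences of 2.12, 1.97 and 1.2 (1.62 without the narrow arrays). AT2G46600, an EF-hand calcium-binding protein, had 9.44, 9.05 and 8.28 untreated, 10.62, 9.97 and 9.49 after 2 days on NAA and 7.98, 7.64 and 8.11 after 5 days in the stem. It had 8.75, 7.21 and 5.6 in the untreated sheath, 8.94, 9.15 and 8.68 in the sheath after 2 days on NAA and 7.87, 6.39 and 6.06 in the cambium. The tissues were apart at 2 days and overlapped untreated and at 5 days, with differences of 1.74, 1.1 and 1.14 (0.49 without the narrow arrays).

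AT4G23670, of the major latex protein and polyketide cyclase-like superfamily, had 6.96, 7.2 and 5.37 untreated, 7.29, 8.11 and 6.45 after 2 days on NAA and 6.61, 5.64 and 6.69 after 5 days in the stem. Between the bundles it had 6.75, 4.76 and 4.56 in the untreated sheath, 5.28, 6.3 and 4.39 in the sheath after 2 days on NAA and 4.97, 2.98 and 2.7 in the cambium. Untreated arrays overlapped, and the later ones were apart, with differences of 1.15, 1.96 and 2.76 (0.33 untreated without the narrow arrays).

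**Figure D3:**
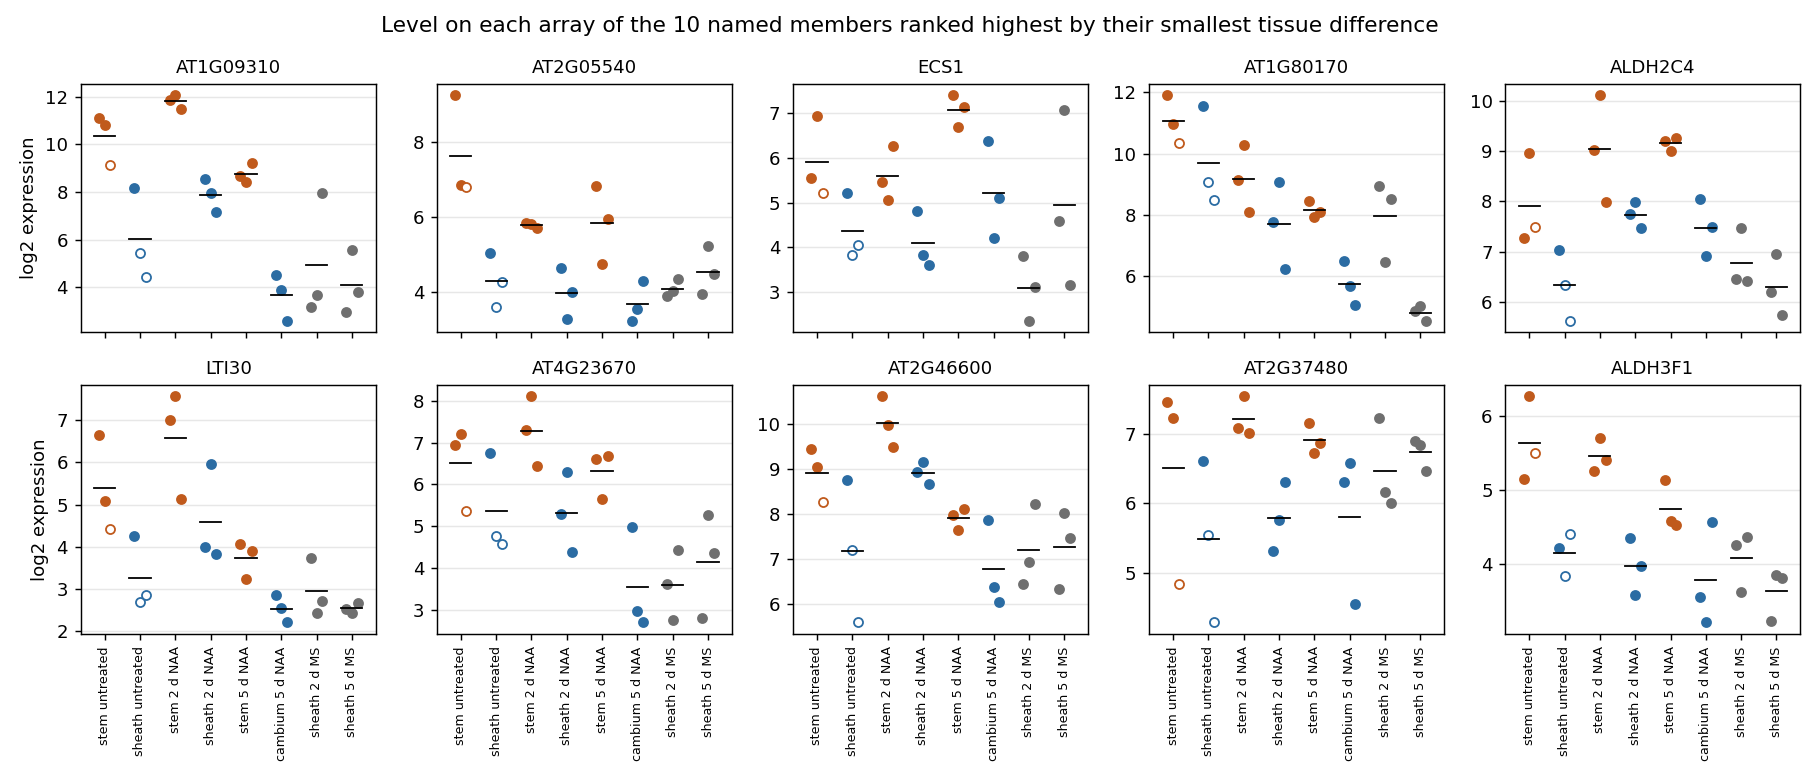
Log2 level on each array (points) and group mean (bars) of the 10 named members ranked highest by their smallest tissue difference, with stem in orange, interfascicular tissue in blue, medium-only sheath in grey and the 3 narrow arrays as open points; each panel has its own scale. The stem mean is above its interfascicular partner in every panel. The means of AT1G09310, AT1G80170, LTI30, AT4G23670, AT2G46600 and ALDH3F1 are lower at 5 than at 2 days in both tissues.

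The remaining named members span metabolism and regulation. CYTC-1, the cytochrome c of mitochondrial electron transport, had group means of 7.09, 9.2 and 9.38 in the stem and 6.22, 8.18 and 8.42 between the bundles. AT2G39400, an alpha/beta hydrolase, had 4.51, 5.26 and 3.96 in the stem and 2.79, 4.35 and 3.0 between the bundles. For AT3G16190, an isochorismatase-like hydrolase, the means were 5.91, 6.34 and 5.46 against 4.3, 5.44 and 4.64. AT5G14120, a membrane transporter of the major facilitator superfamily, had 8.38, 9.53 and 9.27 against 7.52, 8.19 and 6.82. The protein kinase AT5G20050 had 6.69, 7.5 and 7.64 against 5.85, 6.39 and 6.2. AT5G45500, a protein with leucine-rich repeat-like folds, had 6.31, 6.99 and 8.24 against 4.87, 6.18 and 7.24, and AT1G19000 had 6.15, 5.26 and 4.36 against 5.16, 4.39 and 3.49. These means are in the order untreated, 2 days and 5 days, and their SDs ran from 0.07 to 1.52 over 3 arrays. The untreated difference of AT1G19000 was the most negative of all without the narrow arrays, at -0.66. Without them it was 0.15 for CYTC-1, 2.25 for AT2G39400, 0.9 for AT3G16190, 0.61 for AT5G14120, 0.49 for AT5G20050 and 0.86 for AT5G45500.

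The sheath on medium alone was not used to choose the members, although the stem arrays it is set against were. Its mean lay below every one of the 3 stem means in 44 of 60 members at 2 days, against 20.1% of all probe sets, and in 37 members at 5 days, against 22% of all. At both times this held for 35 members, or 58.3%, against 9.15% of all probe sets. All 6 medium arrays lay below all 9 stem arrays in 17 members, or 28.3%, against 0.317% of all probe sets. Among these were AT1G09310, AT4G23670, ALDH3F1, AT2G39400 and AT1G18980, whose medium arrays lay between 3.01 and 3.37 for AT1G18980 and between 2.52 and 2.87 for AT2G39400. These shares carry no test, since high stem values were part of the choice.

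A few members were high in the sheath without NAA. AT2G45180 had 6.96, 6.62 and 7.37 at 2 days and 7.91, 8.21 and 8.05 at 5 days on medium alone, above the untreated and 5-day stem arrays, and above the cambium by 4.52 in the group means. AT5G14120 had 10.08, 8.95 and 8.09 at 2 days and 10.25, 10.09 and 9.33 at 5 days, and its 5-day mean of 9.89 exceeded all 3 stem means. The unnamed probe set 260551_at lay above every stem mean at both times. In all, 6 of 60 members had a medium mean above every stem mean at 1 time or the other, against 39.8% of all probe sets. The interfascicular tissue on NAA and on medium differed in level for many members: at 2 days the medium-only sheath was lower than the NAA-treated sheath by at least 1 in 16 members (among them AT1G09310, with a difference of -2.95, and LTI30, with -1.64) and higher in 5, against 3.34% and 0.853% of all probe sets. At 5 days the medium-only sheath was at least 1 higher than the cambium in 17 members, against 2.91% of all probe sets, and at least 1 lower in 4, among them ALDH2C4, against 3.24% of all. The tissue as well as the treatment differs in the second of these comparisons. Low means in the NAA-treated sheath and the cambium were part of the choice, which favours a higher level on medium. The members also varied more between arrays. Their median SD was 0.444 against 0.173 over all probe sets in the 5-day medium-only sheath, and 0.622 against 0.212 in the cambium. Nothing is therefore read from the shares of these 2 comparisons.

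**Figure D4:**
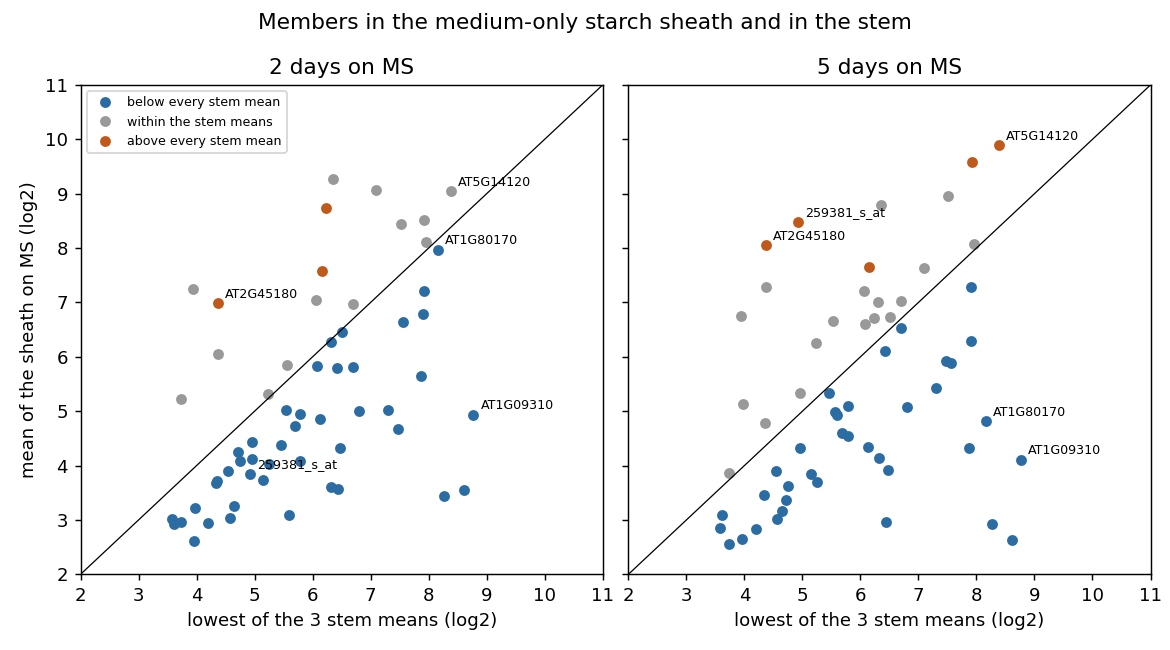
Mean log2 level of each member in the medium-only starch sheath (vertical) against the lowest of its 3 stem means (horizontal) at 2 days (left) and 5 days (right); the line marks equal values. Blue members lie below every stem mean (44 and 37 of 60), orange members above every stem mean (3 and 5) and grey members between.

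The first test compared 2 groups that took no part in the choice, the sheath on medium at 5 days and at 2 days. It asked whether the members changed in culture without NAA. The arrays that chose the members still entered its estimate of the spread. With only the compared groups fitted, 2 members were called, and 259381_s_at had a limma adjusted p of 0.0365. With limma over all 24 arrays and Benjamini-Hochberg adjustment over 22746 probe sets, 1 of 60 members rose and 0 fell; of all probe sets 0.145% rose and 0.158% fell, 0.303% in all. The member that rose was 259381_s_at, unnamed here and read by probes shared between transcripts. It measured 2.67, 4.48 and 4.39 at 2 days and 8.56, 9.02 and 7.87 at 5 days, a difference of 4.64 ± 0.74 (SE) or 24.9-fold (adjusted p = 0.00991), with no overlap between the groups. Its level in the stem was 6.42, 5.74 and 2.61 untreated, 4.84, 6.03 and 5.08 after 2 days on NAA and 5.01, 7.4 and 5.79 after 5 days. At 5 days on medium it was thus above every stem array. The other 59 members did not pass, 10 of the 60 had an unadjusted p under 0.05, against 1863 of the 22746 probe sets, and the median change was 0.02 against -0.02 over all probe sets. AT1G80170 went from 7.97 ± 1.33 to 4.81 ± 0.25 (SD, n = 3), a difference of -3.16 that did not pass (limma adjusted p = 0.117), and CYTC-1 from 9.07 to 7.64 (limma adjusted p = 0.137). The median 95% interval half-width was 1.3 before adjustment over all probe sets. Changes well above it, such as that of AT1G80170, did not pass, so sizeable changes could go undetected.

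The second test took the mean of stem and sheath after 2 days on NAA against the mean of both untreated, which asks whether the module as a whole moved with excision, culture and NAA. By the same limma fit 13 of 60 members rose, 2 fell and 45 did not pass; of all probe sets 10.7% rose and 6.3% fell, 17% in all. The members' median change was 0.5 against -0.09 over all probe sets. The count leans on the narrow arrays: without these 3, 5 members rose and 6 fell, and 6 of the 15 called members were called again. Quantile normalization gave 7 rises and 6 falls and cyclic loess 7 and 7, so the direction of the group is not settled across scalings. The arrays of this test also chose the members. A mean of both tissues is independent of their difference only if both vary equally. The members' median SD was 1.04 in the untreated sheath and 0.917 in the untreated stem, and 0.477 and 0.461 at 2 days. Untreated, the condition was thus not met, and a choice of low sheath means can lower the untreated mean and favour rises. The part this plays in the counts was not tested, so they are not independent of the choice. Genes of several fixed lists passed the same test. Of 9 measured nuclear photosynthesis genes 3 rose, as did 2 of 3 cambium and vascular regulators. Of 3 glucosinolate genes 2 fell, as did 1 gene each of the epidermis, wall loosening and starch sheath lists.

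CYTC-1 rose by 2.04 ± 0.27 or 4.11-fold (limma adjusted p = 6.04e-05). Its stem levels were 7.8, 6.81 and 6.67 untreated, 9.52, 8.84 and 9.24 after 2 days on NAA and 8.6, 9.95 and 9.59 after 5 days. Its interfascicular levels were 7.15, 5.88 and 5.61 in the untreated sheath, 8.72, 7.9 and 7.93 in the sheath after 2 days on NAA and 8.38, 8.35 and 8.52 in the cambium. Every 2-day array of a tissue lay above every untreated array of that tissue. ALDH2C4 rose by 1.27 ± 0.36 or 2.41-fold (limma adjusted p = 0.0232), AT2G46600 by 1.42 ± 0.46 (adjusted p = 0.041) and AT2G39400 by 1.16 ± 0.36 (adjusted p = 0.0329). These last 3 did not pass without the narrow arrays; after cyclic loess the change of ALDH2C4 was 0.21 and that of AT2G46600 0.24. CYTC-1 passed in all 20 alternatives tried, with a highest limma adjusted p of 0.0497, but its rise was smaller in some of them: 1.46 without the narrow arrays, 1.2 after quantile normalization and 0.82 after cyclic loess. AT1G80170 fell by 1.97 ± 0.57 or 3.91-fold (limma adjusted p = 0.0242), and it still passed without the narrow arrays, with a change of -3.07; the call was lost without replicate 3 of either 2-day tissue and in a fit of only the compared groups (limma adjusted p = 0.0968).

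Among the unnamed members, 262119_s_at had 3.91, 5.53 and 3.67 untreated, 7.52, 7.42 and 7.33 after 2 days on NAA and 8.8, 8.73 and 9.67 after 5 days in the stem. It had 3.3, 2.31 and 2.72 in the untreated sheath, 5.77, 6.13 and 5.58 in the sheath after 2 days on NAA and 8.07, 7.6 and 8.13 in the cambium, and rose by 3.05 ± 0.49 or 8.29-fold (limma adjusted p = 0.000343). Stem and interfascicular levels climbed in parallel with no overlap between tissues at any time. For 248236_at the stem had 4.43, 3.63 and 5.57 untreated, 8.87, 8.55 and 8.58 after 2 days on NAA and 6.89, 6.38 and 6.35 after 5 days. The interfascicular tissue had 3.0, 2.75 and 3.37 in the untreated sheath, 3.45, 2.63 and 3.33 in the sheath after 2 days on NAA and 2.95, 2.66 and 2.74 in the cambium, so the rise of 2.11 ± 0.29 (limma adjusted p = 6.88e-05) was carried by the stem arrays. The probe set 263663_at had 9.12, 7.59 and 5.84 untreated, 9.57, 10.35 and 9.35 after 2 days on NAA and 9.08, 9.31 and 9.7 after 5 days in the stem. With 8.09, 5.89 and 5.35 in the untreated sheath, 8.24, 9.04 and 9.0 in the sheath after 2 days on NAA and 8.2, 9.29 and 7.47 in the cambium, it rose by 2.28 ± 0.48 (limma adjusted p = 0.00321) and did not pass without the narrow arrays, at 1.04 (adjusted p = 0.128). The probe set 245671_at fell by 0.91 (limma adjusted p = 0.0367), from 6.72, 8.0 and 6.08 to 5.57, 6.16 and 6.29 in the stem and from 5.47, 5.32 and 5.74 to 5.01, 4.19 and 4.62 in the sheath; the call held in 11 of 20 alternatives and was lost without the narrow arrays (limma adjusted p = 0.0556).

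The third test compared the mean of stem and cambium at 5 days on NAA with the mean of stem and sheath at 2 days on NAA. Here 10 of 60 members fell, 3 rose and 47 did not pass by limma; of all probe sets 2.98% fell and 2.32% rose, 5.3% in all. The members' median change was -0.54 against 0.04 over all probe sets. Falls outnumbered rises under each scaling, with 7 falls and 4 rises after quantile normalization and 14 and 4 after cyclic loess. These arrays chose the members as well. The members' median SD was 0.622 in the cambium and 0.360 in the 5-day stem, so the spread was again unequal. A choice of low cambium means can lower the 5-day mean and favour falls. The part this plays in the counts was not tested, so they are not independent of the choice. Among the fixed gene lists, 6 of the 9 measured of a list of 40 nuclear photosynthesis genes fell in this test (median change -1.37). Of 3 measured phloem genes 2 rose, CLE41 by 1.37 and CLE44 by 1.85, and no gene of the other lists passed.

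AT1G09310, described above, fell by 3.64 ± 0.74 or 12.4-fold (limma adjusted p = 0.0065) and fell in stem and interfascicular tissue alike, with group means going from 11.81 to 8.77 in the stem and from 7.88 to 3.66 between the bundles. LTI30 fell by 2.44 ± 0.46 or 5.44-fold (limma adjusted p = 0.00365) and AT2G46600 by 2.13 ± 0.46 or 4.39-fold (adjusted p = 0.00943). These 3 calls held in all 19 alternatives tried for this comparison. XTH32 fell by 1.78 ± 0.47 or 3.43-fold (limma adjusted p = 0.0319) and AT2G39400 by 1.32 ± 0.36 or 2.5-fold (adjusted p = 0.0352), calls that held in 8 and 9 of the 19. The calls of 5 members passed in both the second and the third test. AT2G46600 and AT2G39400 were among them, up at 2 days and down at 5. Both tests use the same 2-day arrays with opposite sign. High values on these arrays favour a rise and then a fall, so the 2 calls are not independent. The rise of AT2G46600 held in 7 of 20 alternatives and that of AT2G39400 in 11 of 20.

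The largest fall belonged to the unnamed 267093_at. In the stem it had 7.86, 7.59 and 7.84 untreated, 10.79, 9.39 and 11.28 after 2 days on NAA and 6.22, 6.56 and 6.27 after 5 days. It had 7.14, 5.78 and 5.27 in the untreated sheath, 9.83, 7.5 and 10.18 in the sheath after 2 days on NAA and 5.26, 5.12 and 5.11 in the cambium, a fall of 4.07 ± 0.41 or 16.8-fold from 2 to 5 days (limma adjusted p = 8.42e-06) after a rise of 2.91 ± 0.41 (adjusted p = 8.93e-05), which was 1.77 after cyclic loess. On medium alone it stayed at 10.07, 8.93 and 8.81 at 2 days and 8.63, 8.96 and 8.81 at 5 days, above every 5-day array on NAA. The probe set 246908_at had 11.83, 10.90 and 9.47 untreated, 10.08, 11.67 and 10.03 after 2 days on NAA and 7.95, 8.06 and 7.58 after 5 days in the stem. With 7.89, 5.4 and 6.34 in the untreated sheath, 7.36, 6.57 and 6.66 in the sheath after 2 days on NAA and 3.9, 5.03 and 4.06 in the cambium, it fell by 2.63 ± 0.43 (limma adjusted p = 0.00104), and no stem array overlapped its interfascicular partners.

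The 3 members that rose from 2 to 5 days are unnamed here. Probe set 256787_at had 4.14, 3.73 and 3.96 untreated, 5.47, 5.38 and 5.15 after 2 days on NAA and 7.71, 7.06 and 7.5 after 5 days in the stem. It had 2.44, 2.16 and 2.39 in the untreated sheath, 2.63, 2.8 and 3.43 in the sheath after 2 days on NAA and 5.63, 3.51 and 6.46 in the cambium, a rise of 2.17 ± 0.48 (limma adjusted p = 0.0103) that held in all 19 alternatives. Its medium arrays, 6.49, 7.77 and 7.5 at 2 days and 7.94, 7.57 and 4.72 at 5 days, were above the NAA-treated sheath at 2 days. The second, 249346_at, had 5.81, 6.73 and 6.16 untreated, 6.58, 7.45 and 7.14 after 2 days on NAA and 9.39, 7.96 and 8.76 after 5 days in the stem. At 5.1, 4.7 and 5.62 in the untreated sheath, 5.8, 5.25 and 5.29 in the sheath after 2 days on NAA and 7.4, 6.2 and 8.44 in the cambium, it rose by 1.77 ± 0.46 (limma adjusted p = 0.0287), with the tissues overlapping at 5 days; the call held in 11 of 19 alternatives. The third, 262119_s_at, rose again, by 1.87 ± 0.49 (limma adjusted p = 0.0318), a call that held in 9 of 19 alternatives and in 2 of the 12 that leave out 1 array.

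**Figure D5:**
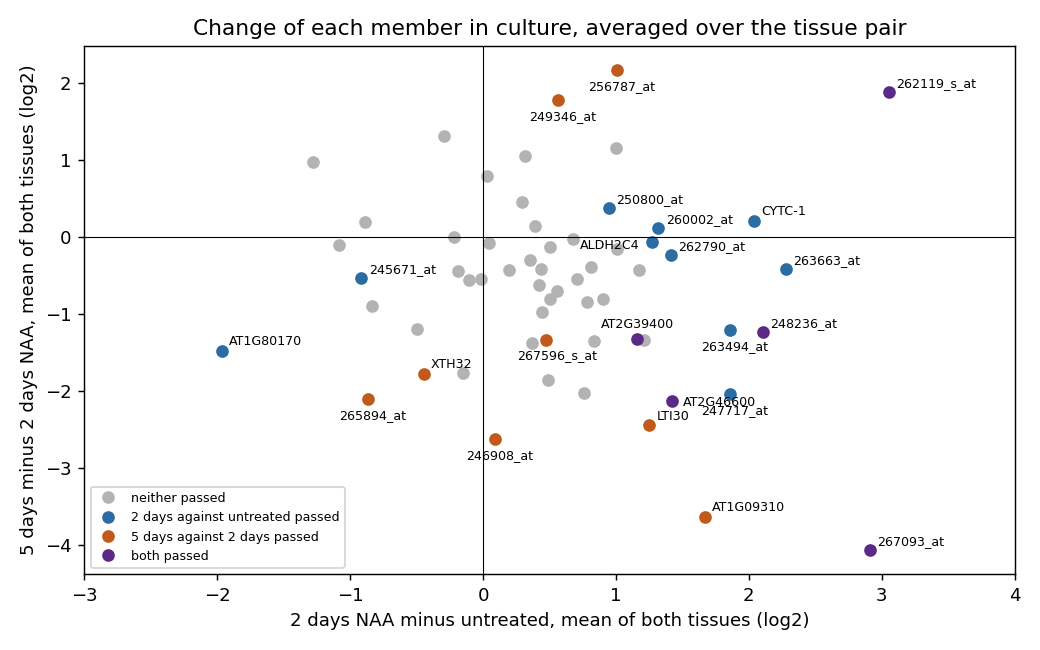
Change of each of the 60 members in the mean of both tissues, from untreated to 2 days on NAA (horizontal) and from 2 to 5 days on NAA (vertical), in log2; colours mark which limma test passed and labels name the 23 members that passed at least 1. Most members lie to the right of 0 and below 0, with 267093_at and 262119_s_at at the edges. The 2-day arrays enter both axes.

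Of 225 entries in 11 gene lists for the tissue and its neighbours, 39 had a named probe set, and 0 of these were members. The other entries could not be matched, so whether any of them is among the unnamed members is not known. Of the 39, 0 were higher and 0 lower in the stem at any of the 3 times by limma. At an unadjusted p under 0.05 the counts were 7, 3 and 3 of 39, or 17.9%, 7.69% and 7.69%, against 13.8%, 4.51% and 5.28% of all probe sets. At an adjusted p under 0.05, 0.154% of all probe sets were higher and 0.0484% lower in the untreated stem than in the sheath, 0.202% in all. At 2 days 0.198% were higher and 0.0484% lower, 0.246% in all, and at 5 days 0.106% were higher and 0.251% lower, 0.356% in all, so a count of 0 among 39 genes is near the background. The largest untreated differences among them were those of BCAT4, an aminotransferase of methionine chain elongation in glucosinolate synthesis, at 3.39 (limma adjusted p = 0.202), and GSTU20, a glutathione transferase, at 2.73 (limma adjusted p = 0.0794); neither passed. The 9 photosynthesis genes had a median stem minus sheath difference of 0.85 untreated, -0.26 at 2 days and -0.07 against the cambium, with single genes from -1.1 (LHCB4.2) to 0.4 (PSAN) at 2 days and from -0.61 (PRK) to 0.27 (SBPASE) at 5 days. Both cuticle genes with a named probe set, WSD1 and CUS2, had stem means from 2.41 to 3.21 and differences that did not pass. No xylem or fibre gene of 19 had a named probe set.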

How the data were processed

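The authors deposited 1 table of log2 expression values per probe set for 24 Affymetrix ATH1 arrays; RMA and limma are listed in the submitters' processing notes with neither version nor setting, and the base of the logarithm is taken from RMA's usual scale. The values run from 1.73 to 13.51. Of 22810 probe sets, 64 controls were left out and 22746 tested. The platform annotation, updated through RefSeq for TAIR10.1, names 1 gene for 13513 of these, several for 503 and none for 8730, so unnamed genes can be among the measured ones, and levels of different probe sets are not compared. No sequences or coordinates of the members were used.

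Members were found from the group means. They, the gene lists and the tests were chosen with earlier results of these data known. Tests were run in R 4.3.3 with statmod 1.5.0 and limma 3.58.1: lmFit with a mean for each of the 8 groups on all 24 arrays, then contrasts and eBayes (prior degrees of freedom 2.55, residual 16), two-sided, Benjamini-Hochberg over all tested probe sets, threshold 0.05. The tissue differences chose the members and carry no test. The scripts were tested on simulated data. Folds are powers of 2 of the log2 change; errors are the model's SE, or the SD over 3 arrays. The number of arrays limits the precision. Each p-value measures the spread between the arrays the labels call biological replicates.

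Values on every array are given for the 10 members with 1 gene whose smallest tissue difference is largest, and for up to 4 members per direction with the largest change in each test; the other members with 1 gene are named with their role, and those of AT2G45180, AT5G14120, XTH32 and CYTC-1 were added after their values were seen. Alternatives were fitting the compared groups alone, a block for the replicate number, quantile normalization, cyclic loess, a filter on probe sets whose group means all lay under 3.09, an intensity trend with a robust prior, array weights, other thresholds and medians in the rule, and leaving out each array. A fit without the 3 narrow arrays was added after seeing the data. The labels number the replicates without saying what a number shares; all 3 same-numbered arrays deviated together with a correlation over 0.1 in 2 of 28 pairs of groups, the 2-day stem with the 2-day sheath on NAA (0.126 to 0.507) and with the cambium (0.103 to 0.13), so numbers were taken as pairs only for the 2-day tissue difference, which carries no test.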

Additional observations from a re-analysis of the deposited data

How the results depend on the processing

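With 3 arrays a group and 2.55 prior degrees of freedom, single calls near the threshold are uncertain. For the sheath on medium, 5 against 2 days, 1 member was called in the reported fit and without any 1 array (1 to 1), 2 in a fit of only the compared groups and after cyclic loess, 3 after quantile normalization and 4 with array weights, whose estimation stopped before full convergence; 259381_s_at passed in all 13 alternatives. For both tissues at 2 days against untreated, 15 calls became 6 with only the compared groups and 23 with array weights, and 8 to 24 when 1 array was left out. The highest of these, 24, came without replicate 1 of the untreated sheath and the lowest, 8, without its narrow replicate 3; counts of 9 came without replicate 3 of the untreated stem, replicate 1 or 2 of the 2-day stem or replicate 2 of the 2-day sheath. Rises and falls, 13 and 2 here, were 7 and 6 after quantile normalization, 7 and 7 after cyclic loess and 5 and 6 without the 3 narrow arrays. For both tissues at 5 against 2 days, 13 calls became 29 with array weights and 7 to 12 with 1 array left out; the lowest, 7, came without replicate 3 of the cambium or of the 5-day stem, and 8 came without replicate 1 of the 2-day stem. Among the list genes, 0 calls became 1 after quantile normalization and 0 to 11 with 1 array left out, the 11 coming without replicate 1 of the untreated sheath.

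The number of probe sets that meet the rule was 60, and 30 at a threshold of 1, 109 at 0.6 and 47 to 68 with 1 array left out. Quantile normalization left 42, of which 39 are among the 60, cyclic loess 40 with 39 shared, the fit without the narrow arrays 42 with 35 shared, and group medians 58 with 43 shared. The medium-only sheath lay below every stem mean at both times in 35 members, and in 32 to 36 with 1 array left out. No change of a member that passed a test reversed its direction under the alternatives tried, whereas 5 untreated tissue differences lay below 0 without the narrow arrays. The causes were not tested.

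With the replicate number as a block the counts were 1, 15, 14 and 0, in the order above.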
